A study of Prunus persica with 8 samples.

Results

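The set described here consists of 20 peach genes with a lower transcript level in flower buds at the 2 middle stages of a winter chilling series. These stages, at 200 and 475 chilling units (200CU and 475CU), were lower than both the first stage sampled (0CU) and the last (770CU). They were chosen from the deposited stage values by a fixed rule. The identifier had to begin with PRUPE, the highest of the 4 stage values had to reach 5 FPKM (a fragment count scaled to the length of the transcript and the size of the library), and the higher of the values at 200CU and 475CU had to lie below the lower of the values at 0CU and 770CU by 0.6 or more in log2(FPKM + 1). This last distance is called the gap. A block of neighbouring genes set aside by number was left out of the search, and 6 features fell under that exclusion. The rule found 20 members among 12883 PRUPE features that could meet it, in a table of 22285 features. The buds came from the nectarine cultivar Fantasia, and the groups were buds at 0CU, 200CU, 475CU and 770CU, for which the labels list 2 libraries each, with no other treatment or genotype. All trees were mature plants of 1 orchard, the bud scales were removed before freezing, ribosomal RNA was depleted, and paired-end reads were sequenced. Buds of each stage were taken on a single day, so the chilling sum cannot be told apart from the sampling day, the season or the development of the bud. The methods of the study describe separate groups of trees as replicates at 0CU, 475CU and 770CU, and nothing says so for 200CU. At 475CU they count more replicates than the 2 libraries that the labels list. The p-values measure the spread between the libraries of a stage only.

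Flower buds of peach form in summer, stop growing in autumn and pass the winter in endodormancy, a state in which warmth alone does not make them grow. Dormancy is lifted by a sufficient time at low temperature, which is counted in chilling units, and the organs inside the bud go on differentiating slowly meanwhile. What the proteins of these 20 genes do cannot be stated here, because 0 of the 20 identifiers matched the RefSeq table of peach genes that was at hand, and for the same reason no names, positions or sequences are given and the tissue could not be checked against marker genes. None of the 6 chromatin regulator genes that the study names by identifier was a member (0 of 6).

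The file holds 1 value per stage. Most of these values could be split into 2 libraries that held whole fragments and averaged to it, and the single libraries were recovered in this way for 21928 of the 22285 features and for 20 of the 20 members. The recovered libraries cannot be assigned to the numbered replicates, so the 2 of a stage are called the larger and the smaller by their effective size, which ran between 18051083 and 25374451 fragments. Members were covered by a median of 253 fragments per library (range 0 to 5582). The share of all summed FPKM taken by features with ENSRNA identifiers was highest in the 0CU buds (42.5%), then 30.5% in 200CU and 35.0% in 475CU buds, and lowest in the 770CU buds (28.6%). Its part in the results was not tested beyond the rescaled values given beside them.

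The members shared a fall early in chilling and a return late in it, and they differed widely in level. The median stage value of the 20 genes was 9.70 FPKM at 0CU (range 1.20 to 132.6), 4.24 FPKM at 200CU (range 0.0128 to 75.2), 5.12 FPKM at 475CU (range 0.125 to 86.8) and 9.87 FPKM at 770CU (range 5.19 to 135.5). These values chose the members and are given as a description without a test. On the log2(FPKM + 1) scale the difference 200CU minus 0CU had a median of -0.91 (range -2.16 to -0.61), and the difference 770CU minus 475CU had a median of 0.79 (range 0.61 to 3.83). The lowest stage was 200CU for 16 members and 475CU for 4, whereas the highest was 770CU for 14 and 0CU for 6. The step up between 475CU and 770CU exceeded the step down between 0CU and 200CU in 8 of the 20. Of the 20, 8 never passed 10 FPKM at any stage and 5 reached 30 FPKM at some stage.

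**Figure D1:**
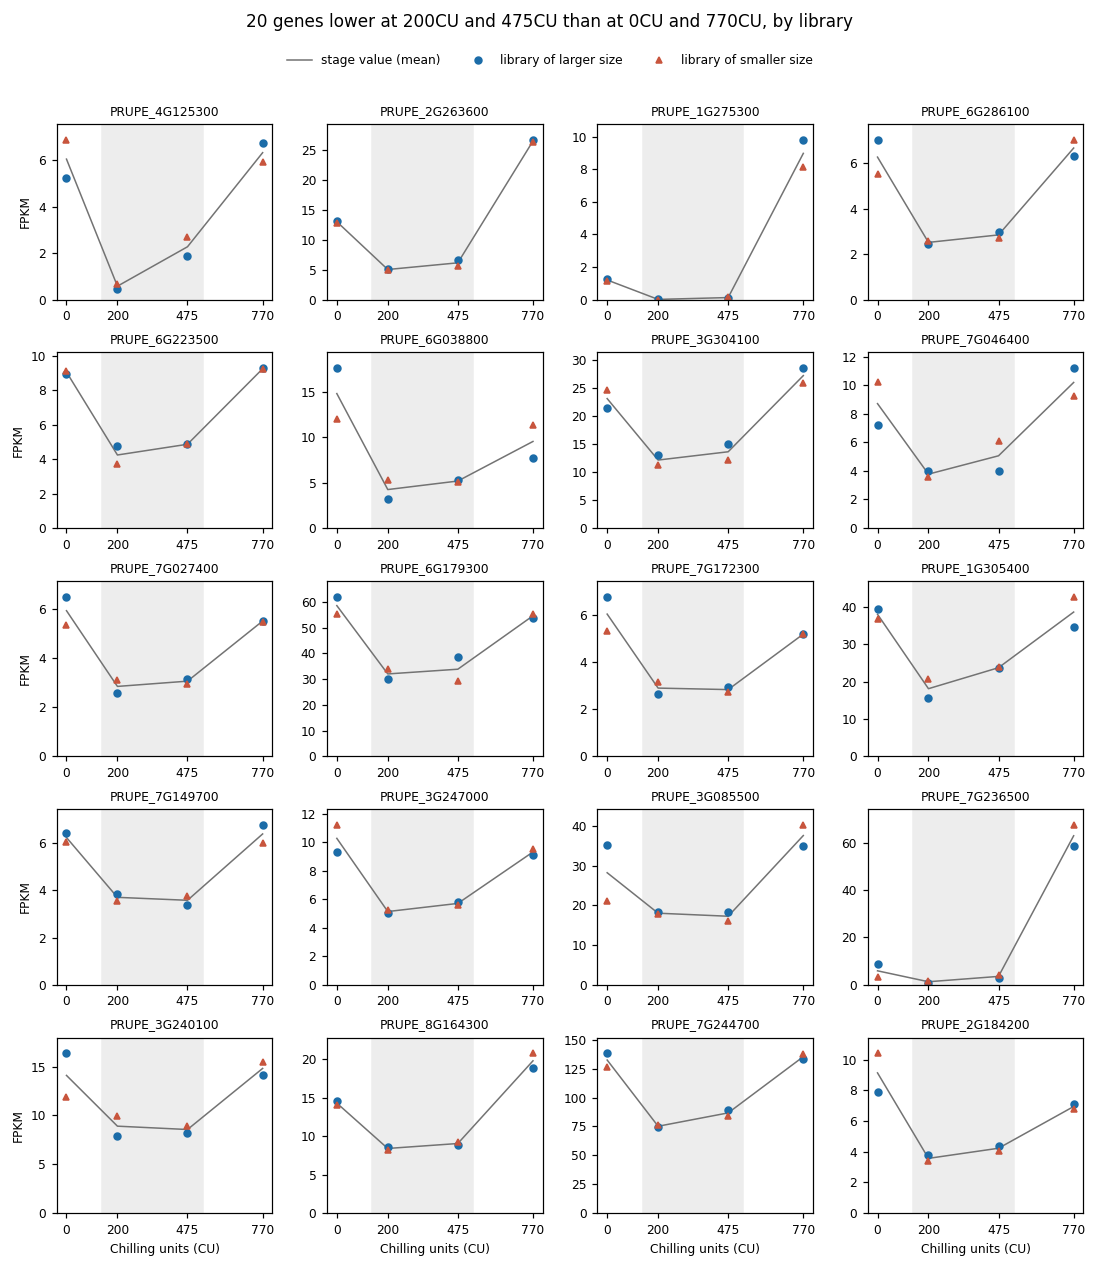
FPKM (vertical axis, from 0, with its own scale in each panel) against chilling units (horizontal axis) for the 20 members in the order of their gap. Circles and triangles are the larger and the smaller library of each stage, the line joins the deposited stage values, and the shading covers 200CU and 475CU. In 19 of the 20 panels the 4 points inside the shading lie below the 4 points outside it, PRUPE_7G236500 being the exception.

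The widest gap, 1.11 on the log2(FPKM + 1) scale, belonged to PRUPE_4G125300. Its 2 libraries gave 5.22 and 6.86 FPKM at 0CU, then 0.468 and 0.687 FPKM at 200CU, then 1.86 and 2.68 FPKM at 475CU, and lastly 6.74 and 5.90 FPKM at 770CU. The gene was lowest at 200CU and intermediate at 475CU, its 770CU libraries lay within the range of the 0CU libraries, and no library of the inner stages reached any of the outer stages. The values at 200CU rest on 32 and 41 fragments, those at the other stages on 110 to 452.

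PRUPE_2G263600 had the second widest gap, 0.97. Its libraries had 13.2 and 12.9 FPKM at 0CU, then 5.13 and 4.93 FPKM at 200CU, then 6.65 and 5.65 FPKM at 475CU, and lastly 26.7 and 26.3 FPKM at 770CU. Here the last stage stood above the first as well as above the middle ones, and the libraries of a stage differed most at 475CU, by 0.20 in log2(FPKM + 1).

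The most abundant member was PRUPE_7G244700, named after its values were seen. It had 138.3 and 126.9 FPKM at 0CU, then 74.5 and 75.8 FPKM at 200CU, then 89.5 and 84.1 FPKM at 475CU, and lastly 133.1 and 137.9 FPKM at 770CU. The rule placed it just inside the limit, with a gap of 0.606, although its libraries are the most deeply covered of the set at 2828 to 5582 fragments each. The member nearest the limit had a gap of 0.605 and stage values of 9.14, 3.56, 4.23 and 6.95 FPKM in the order of chilling. The first gene outside had a gap of 0.5998 and values of 5.67, 3.40, 3.35 and 11.2 FPKM, and the second one outside had a gap of 0.593 and values of 17.0, 9.49, 10.9 and 17.8 FPKM. Genes on both sides of the limit thus had courses of the same shape.

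Read in single libraries, the shape of the rule was present in most but not all of the set. In 19 of the 20 members all 4 libraries of 200CU and 475CU lay below all 4 of 0CU and 770CU, an arrangement found in 5.26% of the 18286 features tested. The rule selected for this arrangement, so nothing is read from the difference. The opposite arrangement was found in 4.93% of features. The exception was PRUPE_7G236500, whose highest inner library had 4.16 FPKM (at 475CU) and whose lowest outer library had 3.16 FPKM (at 0CU).

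The 2 libraries of a stage carried the gap unequally. They average to the values that the rule read and are paired across stages by size alone, so these counts describe the members and support nothing. Taking the larger library of each stage alone, 13 of the 20 members kept a gap of at least 0.6, and taking the smaller alone, 12 did. Both conditions held for 6 members, while 19 had a gap above 0 in both. The gap had a median of 0.65 in the larger libraries (range 0.47 to 1.32) and of 0.63 in the smaller ones (range -0.31 to 1.06), the lowest being that of PRUPE_7G236500.

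**Figure D2:**
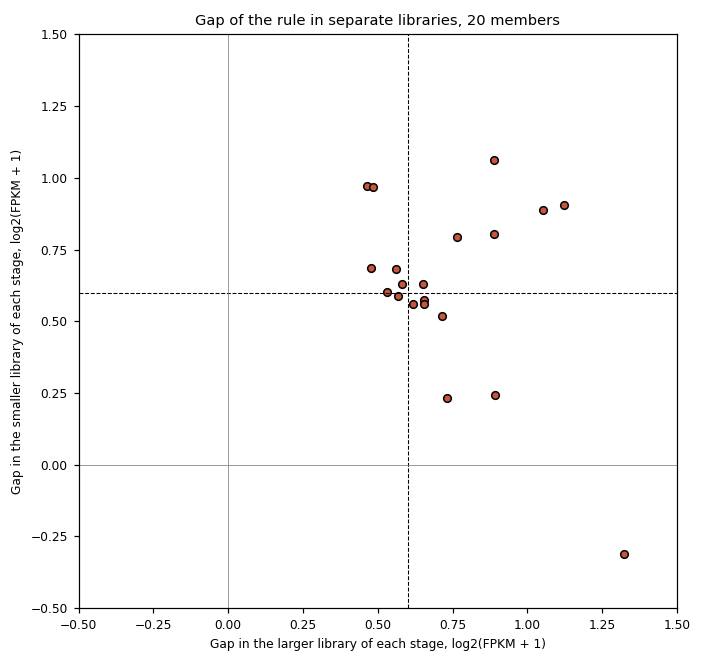
Gap of the rule on the log2(FPKM + 1) scale for the 20 members (points), in the larger library of each stage (horizontal axis) and in the smaller library of each stage (vertical axis), with dashed lines at 0.6. Of the members, 19 lie above 0 on both axes and 6 lie past both dashed lines.

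Apart from its minimum, the rule set no direction for the difference between the outer stages. It did limit that difference, since a gene moving steadily from 0CU to 770CU could not meet the rule. Shares of members and of all features are therefore set side by side as a description. The difference was tested for each gene in a limma fit over all 8 libraries and 18286 features, all 20 members passing its filter. Of the 20 members 4 were higher at 770CU than at 0CU and 0 were lower, with Benjamini-Hochberg adjusted p-values below 0.05 in limma. Over all features tested, 21.5% were called higher at 770CU and 19.6% lower (41.1% in all), so the 4 members called higher are about the share found among all features. One member, PRUPE_1G275300, reached the 5 FPKM of the rule at 770CU and not at 0CU, so its direction was fixed by the rule, and 3 of the 19 that reached it at both stages were called higher. At an unadjusted p below 0.05, 4 members were higher and 2 were lower, beside 25.9% and 24.5% of all features. The differences ran from -0.58 to 3.34 on the log2(FPKM + 1) scale.

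PRUPE_7G236500 had the largest difference. It had 58.3 and 67.3 FPKM at 770CU, against 8.52 and 3.16 FPKM at 0CU, and the groups did not overlap. The difference was 3.34 (SE 0.36, adjusted p = 0.00047, limma). The values at 0CU rest on 40 and 13 fragments of a short transcript, those at 770CU on 331 and 328, and at 200CU and 475CU the libraries held 5, 8, 14 and 19 fragments. Next to its level at 770CU, the dip by which the rule chose it is small.

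PRUPE_1G275300 had 9.79 and 8.16 FPKM at 770CU, against 1.26 and 1.15 FPKM at 0CU. The difference was 2.17 (SE 0.12), given as a description, since the gene met the minimum of the rule through 770CU alone. At 200CU its libraries held 1 and 0 fragments and at 475CU 3 and 5, while a count of 0 in the smaller 200CU library allows up to 0.0879 FPKM, for counting error only. The gene was detected at 0CU, at or near the limit of detection at the middle stages and well above it at 770CU.

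PRUPE_2G263600, whose libraries are given above, differed by 0.97 (SE 0.090, adjusted p = 0.00025, limma), its 2 libraries at 770CU lying above the 2 at 0CU. The fourth gene called was PRUPE_8G164300, named after its values were seen, which had 18.8 and 20.7 FPKM at 770CU, against 14.6 and 14.0 FPKM at 0CU. Its difference was 0.44 (SE 0.081, adjusted p = 0.0044, limma), again with no overlap. Its gap of 0.607 was among the 3 smallest.

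The other 16 members did not pass the test, 10 with a positive and 6 with a negative difference. They ran from -0.58 to 0.44, and the smallest adjusted p among them was 0.071 (limma). A p that misses the threshold does not show that the levels at the 2 stages were alike. The most negative value belonged to PRUPE_6G038800, named after its values were seen, with 7.76 and 11.4 FPKM at 770CU, against 17.6 and 12.1 FPKM at 0CU (adjusted p = 0.099, limma). The libraries did not overlap, but those within each stage were far apart. PRUPE_3G085500, also named after its values were seen, had 34.9 and 40.2 FPKM at 770CU, against 35.2 and 21.2 FPKM at 0CU, and a difference of 0.44 (adjusted p = 0.12, limma). Its larger 0CU library stood with the 770CU libraries and its smaller one near the middle stages. Without the larger 0CU library, which leaves a single library at 0CU, its difference was 0.79. PRUPE_2G184200 was the member nearest the limit of the rule and was named after its values were seen. Its difference was -0.52 without that library, against -0.34 with all libraries (adjusted p = 0.071, limma).

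Across the 20 members the median of the stage differences 770CU minus 0CU was 0.044 on the log2(FPKM + 1) scale, beside 0.0013 over all features tested. The median size of the difference, without its sign, was 0.157 for the members and 0.286 for all features tested. It was 0.277 for the 12552 PRUPE features that could meet the rule and had recovered libraries. Both larger groups include genes moving steadily across the stages, which the rule leaves out, so nothing is read from the smaller size in the members. Taken as stage values, 14 of the 20 members were higher at 770CU than at 0CU, PRUPE_1G275300 among them by the rule. The share of all features was not counted, so nothing is read from the 14. When each stage was rescaled to the same total (TPM), the median over all features moved to 0.30 and that of the members to 0.37, and 10 members were called higher, among 8829 features called higher and 1495 called lower. That was 48.1% of all features called higher and 8.15% called lower, so 10 of 20 is near the share over all features. The direction of the 4 genes called above was the same under this and all the other settings tried, that of PRUPE_1G275300 being fixed by the rule.

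**Figure D3:**
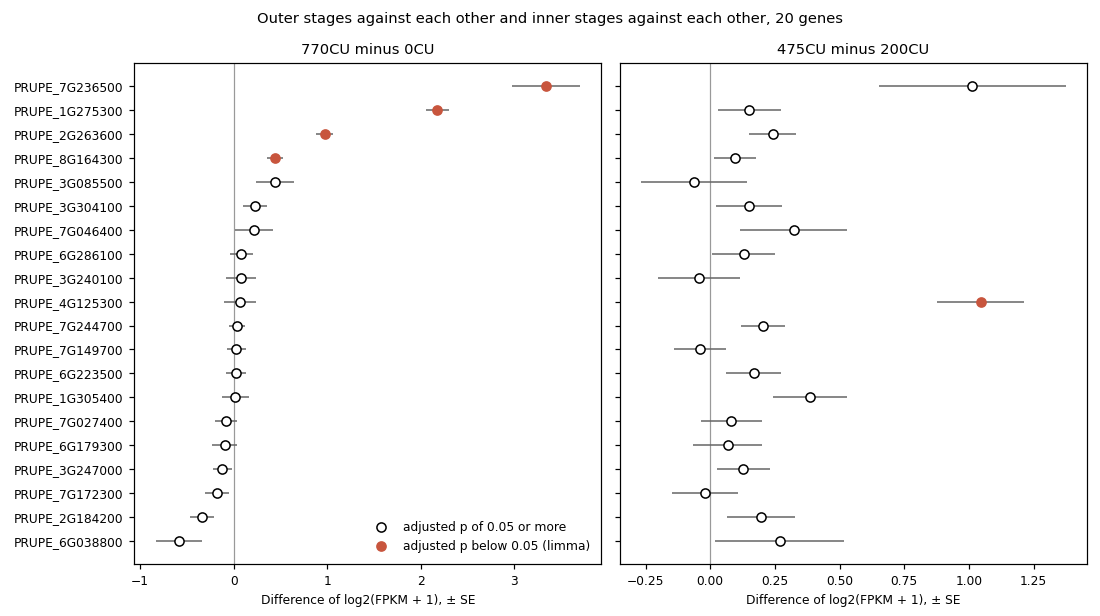
Difference of log2(FPKM + 1) between 770CU and 0CU (left) and between 475CU and 200CU (right) for the 20 members (down the page, ordered by the left panel), with bars of 1 SE from limma. Filled points have an adjusted p below 0.05. In the left panel 4 genes are filled, all on the positive side, and in the right panel PRUPE_4G125300 alone is filled, at 1.04.

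The inner stages were compared with each other in the same fit. The rule set no direction for this difference, but it read both values and left out genes moving steadily across the stages. Shares and medians of the members are again given as a description beside those of all features. PRUPE_4G125300 was called higher at 475CU than at 200CU, and it was the only member called (1 of 20 higher, 0 lower), beside 1.87% of all features tested called higher and 1.21% called lower (3.08% in all). At an unadjusted p below 0.05, 5 members were higher and 0 lower, beside 11.3% and 10.2% of all features. PRUPE_4G125300 had 1.86 and 2.68 FPKM at 475CU, against 0.468 and 0.687 FPKM at 200CU, a difference of 1.04 (SE 0.17, adjusted p = 0.028, limma). The call was lost when any library of 200CU, 475CU or 770CU was left out. The difference and its adjusted p (limma) were then 0.94 and 0.078 without the larger 200CU library, 1.15 and 0.084 without the smaller one, 1.23 and 0.058 without the larger 475CU library, and 0.86 and 0.176 without the smaller one. Without either 770CU library the adjusted p was 0.052, with the difference itself unaltered. Without the smaller 475CU library 1 of all 18211 features tested was called.

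The other 19 members were not called between the inner stages, and 15 of their differences were positive and 4 negative. They ran from -0.062 to 1.01. The highest was that of PRUPE_7G236500, which had 2.80 and 4.16 FPKM at 475CU, against 0.864 and 1.59 FPKM at 200CU (adjusted p = 0.17, limma). These libraries did not overlap but held 5 to 19 fragments each. PRUPE_7G244700 had a difference of 0.20 (adjusted p = 0.22, limma) and PRUPE_2G263600 one of 0.24 (adjusted p = 0.18, limma). The median of the stage differences 475CU minus 200CU was 0.153 for the members and 0.00073 over all features tested. Rescaled to the same total (TPM), it was 0.033 for the members, with the median of all features at -0.12.

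The transcript length was not read by the rule. The lengths recovered from the values, the shortest that fit, had a median of 1508 bases in the members (range 228 to 3052) and 2274 bases in the 12552 candidates, the PRUPE features that could meet the rule and had recovered libraries, and no test of the difference was made.

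The spread between the 2 libraries of a stage, as the size of their log2(FPKM + 1) difference, had a median in the members of 0.238 in 0CU buds, 0.144 in 200CU buds, 0.0962 in 475CU buds and 0.131 in 770CU buds. In the candidate genes it was 0.133, 0.132, 0.0842 and 0.0877 in the same order. The members were less deeply covered, with a median of 253 fragments per library against 729 in the candidates. The part of coverage in the spread was not tested. The median of the members was highest at 0CU, although the libraries were widest apart at 0CU in 9 of the 20 members and at another stage in the rest. The widest were those of PRUPE_7G236500 at 0CU, at 1.19, and the second widest at 0CU were those of PRUPE_3G085500, at 0.71.

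By the number before the G in their identifiers, the members fell most often into group 7, with 6 of 20, against 10.8% of the 12883 PRUPE features that could meet the rule (candidates here), and into groups 3 and 6, with 4 of 20 each, against 11.4% of candidates for group 3 and 13.8% for group 6. Groups 1 and 2 held 2 each, against 22.8% of candidates for group 1 and 11.8% for group 2. Groups 4 and 8 held 1 each, against 9.94% and 9.73%, and group 5 held 0, against 9.59%. With 20 members these shares are counts and were not tested. The members were not neighbours in the list of identifiers, the closest 2 in 1 group having 49 PRUPE features between them.

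The mirrored rule, run with the same gap and minimum and under no other setting, asked for the lower of the values at 200CU and 475CU to lie above the higher of those at 0CU and 770CU, and was met by 71 genes. Of these, 44 were highest at 200CU and 27 at 475CU, and 36 of 71 were lower at 770CU than at 0CU. In the 68 of them with recovered libraries the median difference 475CU minus 200CU was -0.11, and the median size of the difference 770CU minus 0CU was 0.259. Among features with XLOC or ENSRNA identifiers, 1 of 524 with at least 5 FPKM in a stage met the gap of the 20 genes described here.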

How the data were processed

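The deposited file is a table of FPKM that the authors computed for 22285 features, with a single column for each stage. The submitters' processing notes name Trimmomatic 0.39, HISAT2 and featureCounts, and their settings, the genome build and the annotation are not given in the sources used here. No column of values was left unused.

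Each FPKM value was split into 2 libraries whose average it is, with whole fragments over a length common to both and an effective size of each library. Sizes were found from low values, lengths of 30 to 20000 bases were searched, and a solution was kept where chance would give at most 0.01 lengths. The recovery was tested on simulated features and on shifted values. Limma 3.58.1 (R 4.3.3) was run on log2(FPKM + 1) of features that reached 1 FPKM in 2 or more libraries, with the 4 stages in 1 fit, a mean-variance trend and two-sided Benjamini-Hochberg adjusted p-values over all features. Fold changes on this scale understate changes of low genes. Dips were described and not tested, because the rule used them. The code was written in Python 3.11.15 with numpy 2.4.6, pandas 2.3.3, scipy 1.17.1 and numba 0.67.0.

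The members, comparisons and lists were chosen with earlier results of these data known. Genes named were the 2 with the widest gap and the 2 largest called rises and falls in each comparison. Other genes are said to be named after their values were seen. None of the planned lists of gene functions could be used, since 0 identifiers occurred among the 26412 RefSeq genes at hand (assembly Prunus_persica_NCBIv2).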

Additional observations from a re-analysis of the deposited data

How the results depend on the processing

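The number of genes meeting the rule, 20, depended on its settings. It was 36 with a pseudocount of 0.1, 35 after rescaling to the same total without ENSRNA features, 80, 4 and 1 with a gap of 0.4, 0.8 and 1, and 12 with a minimum of 10 FPKM. The TPM scale gave 17 genes, 12 of them among the 20, and leaving out 1 library gave 18 to 28, with 14 to 19 of the 20. Between 770CU and 0CU (limma), 10 members were called on the TPM scale, where 48.1% of all features were called higher and 8.15% lower, and 4 to 6 when 1 library was left out, where 12.9% to 22.2% were called higher and 11.1% to 20.6% lower. The 3 genes called there that reached the 5 FPKM of the rule at both stages kept their direction in all 16 alternatives. They also kept their call wherever each stage kept 2 libraries. PRUPE_1G275300 did the same, but its direction was fixed by the rule, so nothing is read from it. Between 475CU and 200CU (limma), 0 members were called in a fit of only these stages, beside 0.495% of all features called higher and 0.347% lower. In that fit PRUPE_4G125300 had a difference of 1.04 and an adjusted p of 0.067 (limma). With 1 library left out, its difference ran from 0.86 to 1.23. Its adjusted p ran from 0.018 to 0.18 over 16 alternatives. The median difference of the members 770CU minus 0CU was 0.37 on the TPM scale and -0.0072 to 0.072 with 1 library left out. The median 475CU minus 200CU was 0.033 on the TPM scale and 0.11 without ENSRNA features. The causes were not tested. No paired analysis was possible because recovered libraries cannot be matched to the replicate numbers of the labels. The lowest members rest on few fragments, 0 to 5 per library at 200CU and 475CU in PRUPE_1G275300, and no detection limit was computed for differences.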
